A study of Homo sapiens with 5 samples.

Results

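The proteasome is the protease complex that degrades ubiquitin-tagged proteins. Its 20S core is a barrel of alpha and beta rings with the catalytic sites on the inner beta subunits, and its 19S cap recognises, unfolds and threads substrates into that barrel. Dedicated chaperones assemble core and cap, alternative activators can replace the cap, and immune cells and interferon-treated cells swap in the immunoproteasome beta subunits. The genes of this complex are known to be transcribed together, among other things through NFE2L1, a factor that binds antioxidant response elements when proteasome activity falls. The question addressed here is at which of these genes HSF1, which governs chaperone genes under heat shock, and MYC, an oncogenic factor found at many active promoters, were mapped.

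The set holds 47 named genes, all of them found among the 20033 protein-coding genes of GENCODE release 44 on GRCh38. They are the 7 alpha and 7 beta genes of the constitutive core, 3 immunoproteasome beta genes, 6 ATPase and 12 non-ATPase genes of the 19S cap, 3 genes for 19S assembly chaperones, 4 for activators and 5 for 20S assembly chaperones. They were taken by name as members of the complex or its assembly, with no threshold on a measured value. A gene was counted as having a promoter peak when any base of a peak lay within 1 kb of any of its annotated transcription start sites, and each gene was then represented by its peak of highest fold enrichment.

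The peaks come from CUT&RUN, in which an antibody tethers a nuclease to a chromatin protein so that the DNA beneath it is released and sequenced. The cells were OVCAR8, an established human line from an ovarian carcinoma, grown untreated, so all 4 lists describe proliferating cells of 1 line with no heat shock and no drug. For every library the cells were fixed with 1% formaldehyde for 1 minute, and 500000 cells were used per reaction. There were 2 HSF1 libraries, 2 MYC libraries and 1 IgG control, which entered only as the control of each peak call. The labels do not say whether the replicates were separate cultures, so a difference between lists of 1 factor is the only measure of error, and it may be technical. No test over samples was run, since the lists give no value for a gene without a called peak, and the counts below are descriptions set beside the same count over all protein-coding genes.

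The antibody libraries held 8265647 to 10084407 fragments after filtering and the IgG library 9306942. HSF1 peaks were called at a p-value of 1e-04 and MYC peaks at 1e-10, so an HSF1 peak could rest on 5 fragments at its summit and a MYC peak on no fewer than 10. This gave 6421 and 4459 HSF1 peaks and 25623 and 13278 MYC peaks on the main chromosomes. A missing peak means that none was called at that depth and threshold. Both antibodies returned known targets. All 6 chaperone genes chosen as HSF1 checks had an HSF1 promoter peak in both lists, with folds of 15.1 to 59.4 (against 3.49% of all protein-coding genes). All 4 MYC checks (NCL, NPM1, ODC1 and CDK4) had a MYC promoter peak in both lists and no HSF1 promoter peak. MYC was also in both lists at all 6 HSF1 checks and at 40.1% of all protein-coding genes, so its check separates little. ODC1 and CDK4 are the paper's own examples of MYC-only genes in these data, so their result was known beforehand.

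MYC, which binds the palindrome CACGTG (the E-box) together with its partner MAX, was called at most of these promoters, so the E-box sequences are shown first. Of the 8 genes with the highest mean MYC fold, 4 held an E-box inside the strongest peak, beside 8 of all 28 genes with MYC in both lists and 30.9% of all protein-coding genes in both. They are given on the plus strand of GRCh38 with the E-box in capitals, each as a window of 30 bases.

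PSME3, chr17:42833343-42833372: ggctgcgcagcgCACGTGcacagcctcgca
PSMD9, chr12:121888647-121888676: tcaccacaggcgCACGTGttccggcagggc
PSMB3, chr17:38752491-38752520: gtttcaccagccCACGTGcgcgcaggctcc
PSMB10, chr16:67935670-67935699: cagcgatgcaccCACGTGgccctggtacct

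The E-boxes of PSME3, PSMD9 and PSMB3 lay 40, 129 and 236 bp upstream of the canonical start, and that of PSMB10 lay 1166 bp inside the gene. The promoters of the first 3, and of PSMB4 as a gene with no called peak in any list, are shown in full to place those E-boxes. Each is the run of 250 bases before the RefSeq start on GRCh38.p14, all of them on the plus strand, with E-boxes and the antioxidant response core TGACNNNGC (on either strand) in capitals. Among the 41 genes of the set with a RefSeq promoter, these 3 alone held an E-box there (7.32%, against 7.26% of 35116 promoters). The lack of an E-box at PSMB4 therefore does not set it apart from most genes with MYC peaks.

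PSME3, chr17:42833147-42833396: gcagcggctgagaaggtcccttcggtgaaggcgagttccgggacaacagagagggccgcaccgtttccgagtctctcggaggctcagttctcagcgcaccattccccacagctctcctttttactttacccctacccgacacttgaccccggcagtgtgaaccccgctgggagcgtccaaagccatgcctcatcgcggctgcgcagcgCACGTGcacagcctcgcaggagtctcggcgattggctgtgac
PSMD9, chr12:121888540-121888789: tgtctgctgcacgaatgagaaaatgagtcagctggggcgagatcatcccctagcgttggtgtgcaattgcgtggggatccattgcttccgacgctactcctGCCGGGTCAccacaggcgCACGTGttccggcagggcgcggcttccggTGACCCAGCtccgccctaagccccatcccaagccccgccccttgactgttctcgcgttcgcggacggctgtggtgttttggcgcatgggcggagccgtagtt
PSMB3, chr17:38752491-38752740: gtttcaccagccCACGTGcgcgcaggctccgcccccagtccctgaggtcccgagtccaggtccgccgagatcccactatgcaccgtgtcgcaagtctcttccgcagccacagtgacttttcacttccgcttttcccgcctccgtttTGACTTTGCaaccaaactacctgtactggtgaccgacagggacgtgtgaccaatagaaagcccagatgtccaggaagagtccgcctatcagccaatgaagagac
PSMB4, chr1:151399323-151399572: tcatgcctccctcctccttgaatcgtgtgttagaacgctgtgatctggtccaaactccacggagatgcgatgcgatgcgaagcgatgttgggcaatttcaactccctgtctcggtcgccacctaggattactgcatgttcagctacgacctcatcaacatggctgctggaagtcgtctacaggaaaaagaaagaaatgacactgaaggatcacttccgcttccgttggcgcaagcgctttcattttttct

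MYC promoter peaks were widespread in the set and HSF1 promoter peaks were few. MYC replicate 1 had a promoter peak at 37 of the 47 genes (78.7%, against 55.3% of all protein-coding genes) and MYC replicate 2 at 31 (66.0%, against 41.2%). Both MYC lists had one at 28 genes (59.6%, against 40.1%), and at least 1 list at 40 (85.1%, against 56.4%). HSF1 replicate 1 had a promoter peak at 6 genes (12.8%, against 8.58%) and HSF1 replicate 2 at 2 (4.26%, against 6.85%). No gene of the set had an HSF1 promoter peak in both HSF1 lists, where 3.49% of all protein-coding genes did, and 8 had one in either list (17.0%, against 11.9%). Accordingly none had peaks of both factors in all 4 lists, against 3.05% of all protein-coding genes. The HSF1 shares lay on either side of the background in the 2 lists, and with so few genes they are not a result about the set.

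**Figure D1:**
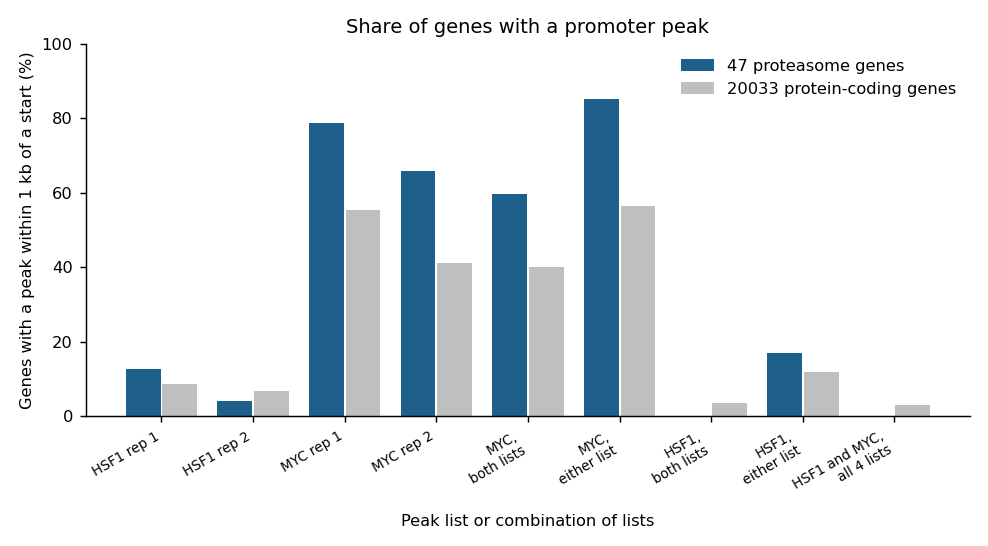
Bars give the percent of genes with a peak within 1 kb of an annotated start, for each list and for combinations of lists, in the 47 proteasome genes (blue) and in all 20033 protein-coding genes (grey). The blue bar is taller in every MYC comparison (59.6% against 40.1% for both lists), and there is no blue bar for HSF1 in both lists.

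The genes of the set differ from the rest in the number of annotated starts, with a median of 8 per gene against 5 over all protein-coding genes. With the canonical start of each gene alone, the count for both MYC lists stayed at the same 28 genes while the background fell to 36.5%. A coding gene on the opposite strand starts within 1 kb of the canonical start at 12 of the 47 genes. Of these, 8 (66.7%) had MYC peaks in both lists, beside 67.0% of all protein-coding genes with such a neighbour. Of the 35 without one, 20 (57.1%) did, beside 35.7%. Promoter activity was not measured in these files, and its part in the counts was not tested.

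**Figure D2:**
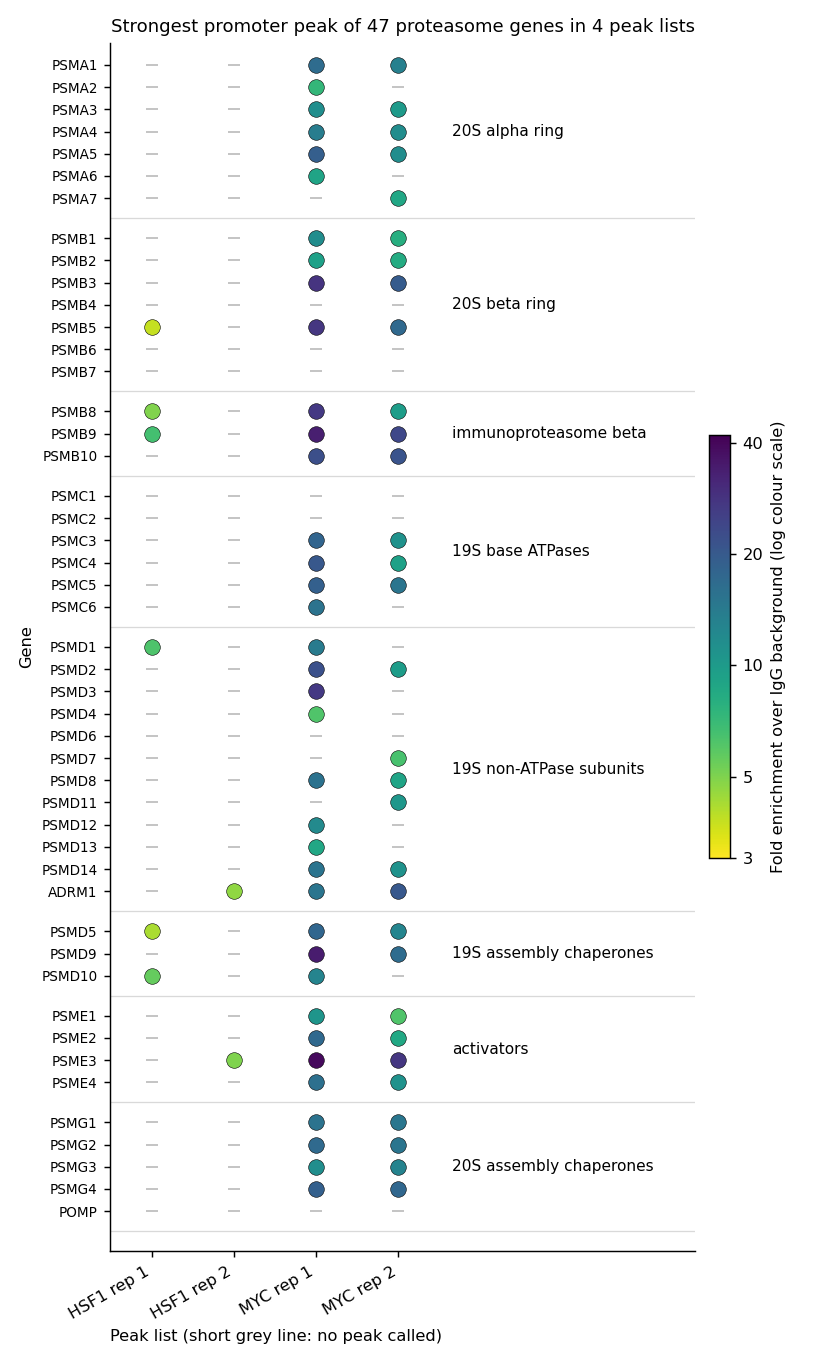
Each row is a gene, ordered by subunit group, and each column a peak list; a circle marks a promoter peak and its colour the fold enrichment over the IgG background on a log scale, and a short grey line marks no called peak. The MYC columns are filled at 37 and 31 genes and the HSF1 columns at 6 and 2, and no gene has circles in both HSF1 columns.

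Among the 28 genes in both MYC lists the fold enrichment had a median of 15.2 (mean of the 2 lists, range 8.38 to 33.5), against 14.4 over the 8024 protein-coding genes in both lists. By list the medians were 17.6 against 16.7 in replicate 1 and 12.1 against 11.9 in replicate 2. The median of the set stood 0.885 above that of all genes in replicate 1 and 0.174 above it in replicate 2. Between the lists the medians of the set differed by an SD of 3.85, and the medians over all genes shifted the same way. That SD is therefore no error of the difference between the set and all genes, which was not tested. Over every gene called in a list, in both lists or not, the set was not above all genes in replicate 2. There the medians were 11.6 at 31 genes of the set and 11.7 at 8245 protein-coding genes. In replicate 1 they were 16.0 at 37 and 14.6 at 11080. Replicate 1 gave the higher fold at 26 of the 28 genes (92.9%, against 81.1% over all genes), and the median ratio between the lists was 1.42 against 1.36. ADRM1 and PSMG3 were the 2 exceptions. Across the 28 genes the log2 folds of both lists had a Pearson correlation of 0.669, beside 0.591 over all 8024, a description across genes that share libraries and the IgG control.

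**Figure D3:**
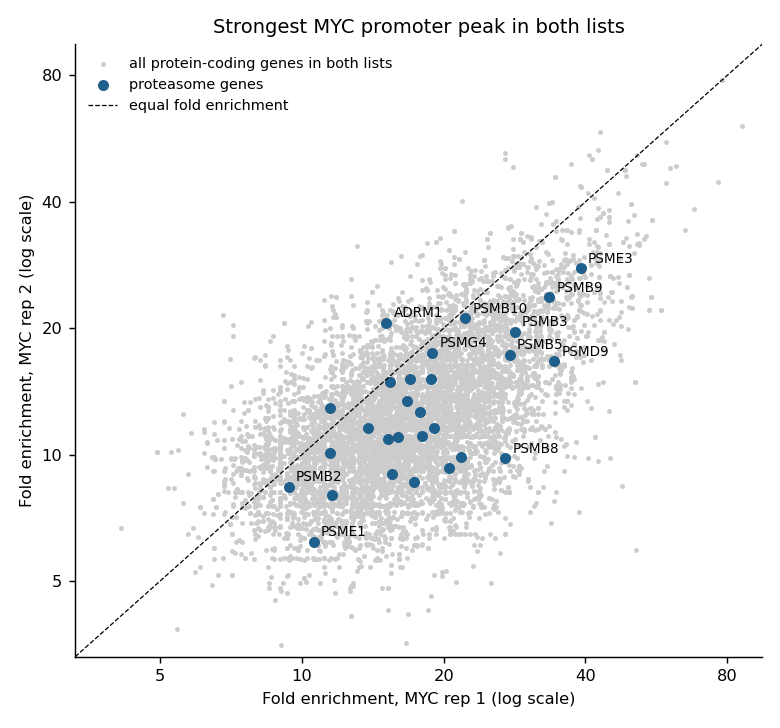
Each point is the strongest promoter peak of a gene, with its fold enrichment in MYC replicate 1 on the x axis and in MYC replicate 2 on the y axis (both log scales), for proteasome genes (blue) and all 8024 protein-coding genes in both lists (grey). The blue points lie inside the grey cloud from PSME1 (10.6 and 6.2) to PSME3 (39.1 and 27.8), and 26 of 28 lie below the dashed line of equal fold.

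The alpha ring, whose subunits form the gate of the core barrel, had MYC promoter peaks at all 7 genes in at least 1 list and at 4 in both. The 4 genes in both lists were PSMA1, PSMA3, PSMA4 and PSMA5, with mean folds of 10.8 to 15.4. PSMA3 was the lowest of these, at 11.5 in replicate 1 and 10.1 in replicate 2. Replicate 1 alone had a peak at PSMA2 (7.29) and at PSMA6 (9.01), and replicate 2 alone at PSMA7 (8.76). These single-list folds were lower than both folds of PSMA3. The strongest PSMA1 peak (16.7 and 13.4) lay 123573 and 123518 bp upstream of the canonical start, at an upstream PSMA1 start beside that of PDE3B. At the canonical PSMA1 start the folds were 14.1 and 7.54. No alpha gene had an HSF1 promoter peak.

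The constitutive beta ring was split, with MYC in both lists at 4 genes and in neither at 3. PSMB3, a structural subunit, had folds of 28.3 and 19.6 (23.9 ± 6.16, mean ± SD, n = 2). PSMB5, which carries the chymotrypsin-like site that is the main target of bortezomib, had folds of 27.6 and 17.3 (22.5 ± 7.27). Both stood above 81.7% or more of the bound genes in each list. PSMB1 had folds of 11.6 and 8.0 and PSMB2, 9.37 and 8.38, and they were among the lowest of the set. The PSMB1 summits fell at different places, 899 bp upstream of its start in replicate 1, nearer to the start of the divergent gene TBP, and 203 bp downstream in replicate 2. Replicate 1 had a second PSMB1 peak with a fold of 8.51 and its summit 110 bp downstream, so both lists had a peak of similar fold at the start itself. PSMB4, PSMB6, which carries the caspase-like site, and PSMB7, which carries the trypsin-like site, had no MYC promoter peak in either list. Of the 3 constitutive catalytic subunits, PSMB5 was thus the one whose gene had a called peak. The closest MYC peaks in replicates 1 and 2 lay 5779 and 5774 bp from a start of PSMB6, 8240 and 36966 bp from one of PSMB7, and 51826 and 52099 bp from one of PSMB4.

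All 3 immunoproteasome genes had MYC promoter peaks in both lists, and all 3 were among the 8 highest. PSMB9 had folds of 33.5 and 23.7 (28.6 ± 6.94), with pileups of 70 and 57 fragments at the summit. Its summits lay 260 and 248 bp upstream of the PSMB9 canonical start and were nearer to the start of TAP1, the divergent gene for a subunit of the peptide transporter of antigen presentation. PSMB8 had folds of 27.0 and 9.8 (18.4 ± 12.2), the lists differing by a factor of 2.76, the widest ratio of the set. The PSMB8 summits lay 528 and 555 bp upstream of its canonical start, and an annotated PSMB9 transcript starts within 1 kb of them, so the assignment of that peak is shared. PSMB10 had folds of 22.2 and 21.1 (21.6 ± 0.743). Its summits lay inside the gene, in introns 4 and 5, 1050 and 1269 bp downstream of the canonical start. Replicate 1 had a second peak with a fold of 8.58 at the canonical PSMB10 start, where replicate 2 had none.

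In the 19S base, the ATPases that unfold substrates, MYC was called in both lists at PSMC3, PSMC4 and PSMC5, with mean folds of 14.5 to 16.9. PSMC6 had a peak in replicate 1 alone (15.4). PSMC1 and PSMC2 had none. In replicates 1 and 2 the closest MYC peaks lay 20954 and 64264 bp from a start of PSMC1, and 47779 and 48125 bp from one of PSMC2.

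The 12 non-ATPase genes of the cap, which scaffold it and bind or trim ubiquitin chains, are the largest group. They also had the largest number of single-list calls, 7 of 12 genes beside 3 of 7 in the alpha ring. Both lists held 4 of the 12 non-ATPase genes (PSMD2, PSMD8, PSMD14 and ADRM1), with mean folds of 12.2 to 17.9. ADRM1, a ubiquitin receptor, was 1 of the 2 genes higher in replicate 2, at 15.1 and 20.6. Replicate 1 alone had peaks at PSMD1 (14.1), PSMD3 (27.0), PSMD4 (6.21), PSMD12 (12.0) and PSMD13 (8.72). The PSMD1 peak was at an internal start, with its summit in intron 20, 105249 bp downstream of the canonical start. Neither MYC list had a peak at the canonical PSMD1 start. The PSMD3 fold stood above 90.4% of the bound genes in replicate 1, and no peak was called there in replicate 2. PSMD4, another ubiquitin receptor, was at the opposite end and stood above 0.659%. Replicate 2 alone had peaks at PSMD7 (6.48) and PSMD11 (10.4). PSMD6 had none, and its closest MYC peaks lay 52752 and 100800 bp away.

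Over the whole set, 9 genes were called in MYC replicate 1 alone (19.1%, against 15.3% of protein-coding genes) and 3 in replicate 2 alone (6.38%, against 1.1%). A total of 7 genes were in neither list (14.9%, against 43.6%).

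The 19S assembly chaperones PSMD5, PSMD9 and PSMD10 help to build the ATPase ring. PSMD9 had folds of 34.3 and 16.7 (25.5 ± 12.4), with the summits 225 bp upstream and 121 bp downstream of its start. PSMD5 had folds of 17.8 and 12.6. PSMD10, also known as gankyrin, had a peak in replicate 1 alone (12.8).

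All 4 activator genes had MYC peaks in both lists, and they included both the highest and the lowest fold of the set. PSME3, which encodes the nuclear activator PA28-gamma, had folds of 39.1 and 27.8 (33.5 ± 8.06), pileups of 82 and 67 fragments, and stood above 98.3% and 97.3% of the bound genes. Its start faces that of BECN1, an autophagy gene, and the summits lay 187 and 150 bp upstream of the canonical PSME3 start. PSME1 had folds of 10.6 and 6.2 (8.38 ± 3.08). PSME1 and PSME2 encode the interferon-inducible pair PA28-alpha and PA28-beta. PSME2 (17.3 and 8.6) and PSME4 (16.0 and 11.0), the gene of PA200, lay between them, and their summits were nearer to the starts of RNF31 and ACYP2.

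Of the 20S assembly chaperones, PSMG1, PSMG2, PSMG3 and PSMG4 had MYC peaks in both lists and POMP, the maturation factor of the core, had none, with its closest MYC peaks 47970 and 83099 bp from a start. PSMG4 had folds of 18.9 and 17.5 (18.2 ± 0.958) and was the eighth of the set. PSMG3 had folds of 11.5 and 12.9 (12.2 ± 1.03), with summits 1099 bp upstream and 178 bp downstream of its start. Replicate 1 had a second PSMG3 peak with a fold of 11.2 and its summit 243 bp upstream, which lay within the peak of replicate 2. The strongest PSMG2 peak (17.0 and 15.1) lay at an alternative start 44794 and 44665 bp upstream of the canonical one, where the folds were 13.6 and 10.7. On the opposite strand, CEP76 starts within 1 kb of the canonical PSMG2 start and SPIRE1 within 1 kb of an alternative one.

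MYC summits sat close to the canonical start in the set as in the genome. The median distance was 187 bp in replicate 1, against 202 bp over all bound genes, and 216 bp in replicate 2, against 235 bp. In replicate 1 the summit was upstream at 28 of 37 genes and in replicate 2 at 17 of 31. The gene whose start was nearest to the summit was another than the set's own at 9 of 37 genes and at 7 of 31. For those genes the lists cannot tell which of the neighbours the peak belongs to. The counts of upstream summits and of nearer neighbours have no share over all bound genes beside them, so they describe the set alone.

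**Figure D4:**
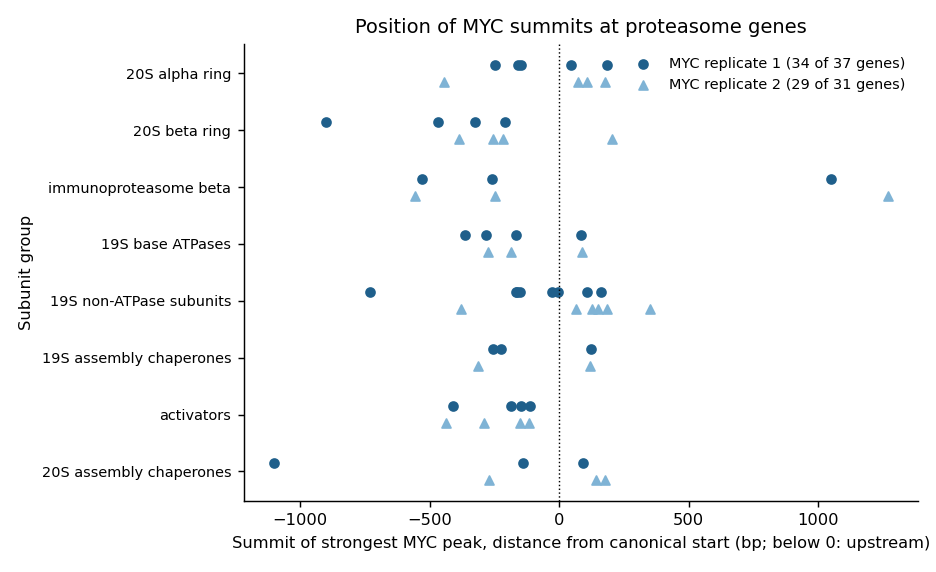
Points give the summit of the strongest MYC peak of each gene relative to its canonical start (x axis, bp, with upstream below 0), by subunit group, for replicate 1 (circles) and replicate 2 (triangles); 34 of 37 and 29 of 31 genes lie within the 2000 bp drawn. Most points fall just upstream of or at the start. The farthest drawn are those of PSMB10, 1050 and 1269 bp downstream, and of PSMG3 in replicate 1, 1099 bp upstream.

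HSF1 was called at 8 genes, each in 1 list, with folds under those of the chaperone genes. In replicate 1 the folds were 3.8 at PSMB5, 4.96 at PSMB8 (a peak that also lies within 1 kb of a PSMB9 start), 6.58 at PSMB9, 6.25 at PSMD1, 4.2 at PSMD5 and 5.62 at PSMD10. In replicate 2 they were 4.67 at ADRM1 and 4.99 at PSME3. The summits of the PSMB9 and PSME3 peaks were nearest to the starts of other genes, TAP1 (140 bp) and BECN1 (75 bp). The pileups were 8 to 13 fragments. By comparison, the HSF1 folds at the 6 chaperone check genes began at 15.1. The medians at the set's genes, 5.29 in replicate 1 and 4.83 in replicate 2, were close to those over all genes with an HSF1 promoter peak, 5.0 and 5.19. PSMB9 alone reached a −log10 p-value of 10, the threshold used for MYC, with 10.7.

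All of these HSF1 calls fell on MYC peaks of replicate 1. There were 8 distinct HSF1 peaks, of which 8 overlapped a MYC peak of replicate 1 and 6 one of replicate 2; at PSMD1 and PSMD10 replicate 2 had no MYC peak. In all protein-coding genes, 95.3% of those with an HSF1 promoter peak in replicate 1 had a MYC promoter peak in replicate 1 too and 82.9% in replicate 2, and 95.2% and 85.6% for HSF1 replicate 2. Counted in the same way, by gene and whether or not the peaks overlap, the set had MYC at 6 of its 6 genes with HSF1 replicate 1 and at 4 of these in MYC replicate 2, and at both genes with HSF1 replicate 2 in either MYC list. Summits were closest at PSMB5 (16 and 8 bp from the MYC summits of replicates 1 and 2), PSMB9 (24 and 12 bp) and PSME3 (47 and 10 bp). They were farthest apart at ADRM1 (718 and 507 bp) and PSMD10 (349 bp). The HSF1 peak sat to one side of the MYC summits at ADRM1 and spanned the MYC summit at PSMD10. The PSMD1 peak was no peak of the main promoter, since it lay in intron 20, 105292 bp downstream of the canonical start and 934 bp from an annotated internal start.

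**Figure D5:**
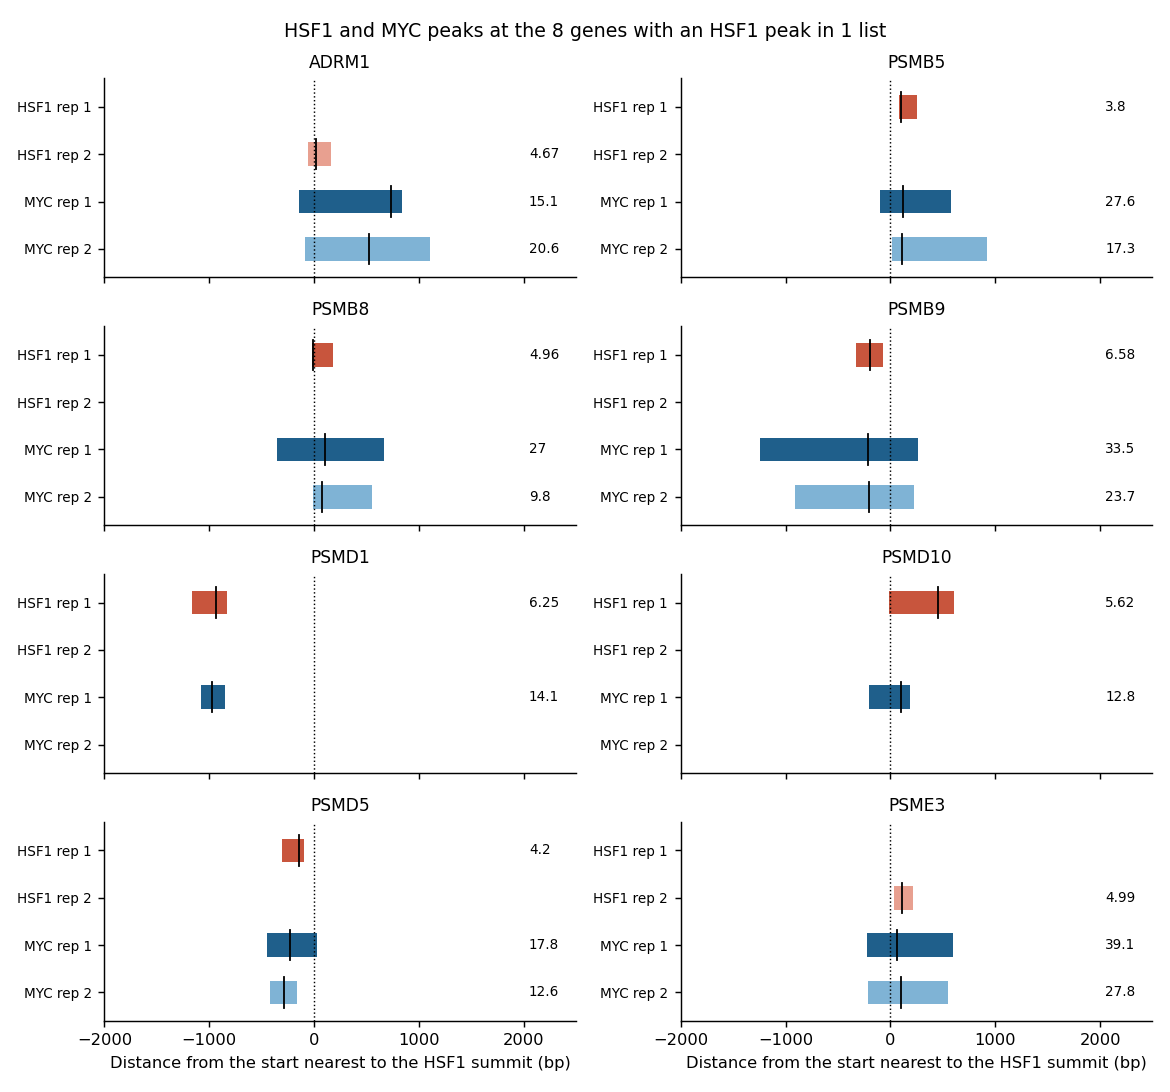
Bars show the HSF1 (red) and MYC (blue) peaks of each list at the 8 genes with an HSF1 peak in 1 list, with the x axis in bp from the annotated start nearest to the HSF1 summit, in the direction of the gene; the dark tick is the summit and the number on the right the fold enrichment. HSF1 folds run from 3.8 to 6.58 and MYC folds from 9.8 to 39.1, and PSMD1 and PSMD10 have no MYC peak in replicate 2.

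E-boxes were about as frequent at the MYC peaks of these genes as at all MYC promoter peaks. Within 100 bp of the summit of the stronger of the 2 lists, 2 of the 28 genes (PSMB3 and PSMD9) held an E-box (7.14%, against 8.09% of all genes in both MYC lists). Within 200 bp there were 6 (21.4%, against 21.6%) and within the whole peak 8 (28.6%, against 30.9%). In MYC replicate 2 the one E-box within 100 bp was that of PSMB2, 4 bp from the summit. None of the 8 HSF1 summits had a heat shock element within 100 bp, in either the 3-unit form (GAANNTTCNNGAA or its reverse TTCNNGAANNTTC) or the looser 2-unit form (GAANNTTC or TTCNNGAA). Over all genes with an HSF1 promoter peak, the 2-unit form was found at 20.3% in replicate 1 and 17.3% in replicate 2, and the 3-unit form at 5.24% and 3.35%.

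The RefSeq promoter table, which covers 250 bases before to 50 after each start, matched 41 of the 47 genes. It held an E-box at 3 of these (PSMB3, PSMD9 and PSME3; 7.32%, against 7.26% of 35116 promoters), a 3-unit heat shock element at 0 (against 0.49%) and a 2-unit one at 2 (PSMD5 and PSMD6; 4.88%, against 13.5%). CCAAT, which NF-Y binds, was present at 19 (46.3%, against 34.6%). Over protein-coding promoters alone, the shares were 8.89% for the E-box and 36.6% for CCAAT. For the 3-unit and 2-unit heat shock elements they were 0.358% and 11.4%. The antioxidant response core TGACNNNGC, to which NFE2L1 binds, was present at 14 (34.1%, against 13.3% of all promoters and 14.3% of the 15345 protein-coding ones). The core and CCAAT were counted on both strands and with overlaps between motifs allowed, and a match to so short a motif is a description and not a binding site. Some of these cores are shown because they are the one sequence feature counted here whose share in the set stood farthest above that of all promoters. Each is read on the strand on which it spells TGACNNNGC, with the core in capitals.

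PSMD3, chr17:39980764-39980784: ctttgtTGACTCGGCcatcgg
PSMB3, chr17:38752631-38752651: ccgtttTGACTTTGCaaccaa
PSMD12, chr17:67366728-67366748: aaaaccTGACGCTGCaggctg
ADRM1, chr20:62302753-62302773: cccctaTGACACAGCaacaat
PSMD5, chr9:120843042-120843062: tacagtTGACACGGCcctaac
PSMB9, chr6:32854038-32854058: gacaagTGACGAGGCagcccc

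At the MYC summits (100 bp either side) the same core was found at 9 of 37 genes in replicate 1 (24.3%, against 9.73% of all bound genes) and at 4 of 31 in replicate 2 (12.9%, against 8.33%). It also lay within 100 bp of 3 of the 6 HSF1 summits of replicate 1, at PSMB9, PSMD1 and PSMD5 (against 9.78% of all genes with an HSF1 promoter peak in that list), and of 0 of the 2 summits of replicate 2 (against 9.26%). The lists hold no data on NFE2L1 itself.

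A second list of 22 genes, which act with the proteasome but are not in the set, was counted the same way. MYC was called in both lists at 15 of them (against 40.1% of all protein-coding genes), in replicate 1 alone at 3 (against 15.3%) and in neither at 4 (against 43.6%). The 4 were PSMA8 and PSMB11, the testis and thymus variants of core subunits, the cap subunit SEM1 and the shuttle factor UBQLN2. The highest MYC folds were those of the 19S chaperone PAAF1 (49.5 and 26.8) and the deubiquitinase USP14 (43.7 and 23.1). NFE2L1 had 22.0 and 11.5. The shuttle factor UBQLN1 was the 1 gene of the 22 with HSF1 in both lists (against 3.49%), with folds of 14.5 and 41.0 beside MYC folds of 17.2 and 17.6. RAD23B (4.16, replicate 2) and DDI2 (3.44), VCP (3.44) and AKIRIN2 (5.38, all in replicate 1) had HSF1 in 1 list. Over all protein-coding genes, 11.9% had HSF1 in either list.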

How the data were processed

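Reads of each CUT&RUN library were trimmed and mapped by the authors with Bowtie 2 (build GRCh38, also named hg38). MACS 2.2.9.1 was then run per library against 1 IgG library. Per the file headers, each peak has a pileup (a signal in fragments at the summit), a −log10 p-value and a fold enrichment, which is a ratio to the local background. The deposited lists hold no read counts, and 0 other columns of per-sample values were left aside. The submitters' processing notes also name bcl2fastq 2.20.0, SAMtools and bedtools.

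Peaks were assigned to GENCODE release 44 starts with Python 3.11.15, pandas 2.3.3 and numpy 2.4.6, and plotted with matplotlib 3.10.9. No peak passed the end of a GRCh38 chromosome. Replicates shared 2 identical peaks (HSF1) and 8 (MYC), so no list is a copy. The gene assignment was tested on simulated data. Promoter sequences come from RefSeq (GRCh38.p14), and other sequences from the genome. The genes and lists were chosen with earlier results of these data known. Values were given for genes with HSF1 in any list, the 8 highest and 5 lowest by mean MYC fold, and those with MYC in 1 list or none, and the other genes named were picked with their values in view. Alternatives covered start set, distance, summit, threshold and replicates. No test across genes was run.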

Additional observations from a re-analysis of the deposited data

How the results depend on the processing

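The count of 28 genes with MYC in both lists was the same, with the same genes, at the canonical start alone, at 500 bp, at 3 kb and with the summit within 1 kb. That is 59.6% of the set, against 36.5%, 39.0%, 42.1% and 39.3% of all protein-coding genes in that order. The count was 21 at a −log10 p-value of 20, for which no share over all genes is given. It was 40 with either list (85.1%, against 56.4%). With 1 MYC list left out it was 31 (66.0%, against 41.2%) to 37 (78.7%, against 55.3%). The count of 0 genes with HSF1 in both lists became 1 at 3 kb (2.13%, against 4.5% of all protein-coding genes). That gene was PSMD1, from separate peaks in the 2 lists. The count became 8 with either list (17.0%, against 11.9%). With 1 HSF1 list left out it was 2 (4.26%, against 6.85%) to 6 (12.8%, against 8.58%). The count of 0 with both factors in all 4 lists became 8 with either list and ranged from 0 to 4 with 1 list left out, where 2 rested on HSF1 replicate 2 and 4 on HSF1 replicate 1. No share over all genes is given for these alternatives with both factors. The E-box count of 2 became 6 within 200 bp and 8 in the whole peak, and 1 to 2 with 1 MYC list left out. The median MYC fold of 15.2 over the 28 genes ranged from 11.6 to 16.1, with the genes changing by setting. With 1 MYC list left out it was 11.6 over the 31 genes of replicate 2 and 16.0 over the 37 of replicate 1. Over the same 28 genes the medians by list were 17.6 in replicate 1 and 12.1 in replicate 2. The stricter threshold and looser or fewer lists change these counts by their construction. No paired analysis was possible because the lists give peaks and not values per sample that a fit could block by replicate number.

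A gene missing from 1 list was not called at its threshold, which does not show absence. HSF1 and MYC lists were called at different p-values, so their counts are not comparable between factors. Every header names the same control, IgG replicate 2, where the labels list 1 IgG sample without a number. They were taken as the same library, and the spread between IgG libraries is not in these folds. Peaks at shared or alternative starts are assigned by distance.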

Other observations

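The highest HSF1 fold within these genes or 10 kb of them lay outside the 1 kb window. In PSMG4, which encodes a chaperone of 20S assembly, an HSF1 peak was present in both lists inside the annotated gene span, with its summit 11430 bp (replicate 1) and 11461 bp (replicate 2) upstream of the nearest annotated start. It spanned chr6:3246994-3248028 in replicate 1, with a fold of 26.9 and a pileup of 55 fragments, and chr6:3246908-3248353 in replicate 2, with a fold of 33.6 and a pileup of 64. These folds stood above 99.3% and 99.1% of the peaks of their lists, and MYC peaks overlapped it with folds of 24.9 and 17.3. At the PSMG4 promoter itself neither HSF1 list had a peak. The peak was found by looking at distal peaks after the counts were made. It is shown by the 101 bases of GRCh38 around the summit of replicate 1, on the plus strand. In this window there was no 2-unit heat shock element, and the peak held no 3-unit element and no E-box.

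PSMG4 distal peak, chr6:3247417-3247517: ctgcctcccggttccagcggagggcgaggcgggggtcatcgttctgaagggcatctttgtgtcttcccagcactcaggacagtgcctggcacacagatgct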
